A study of Mus musculus with 4 samples.

Results

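*Apoe*, *Apoc1*, *Apoc4*, *Abca1*, *Abcg1*, *Lpl*, *Nr1h3*, *Plin2*, *Lipa*, and *Npc2* were followed as a set of apolipoprotein and cholesterol handling genes across the cells of the inflamed spinal cord (SC). These 10 genes were taken by symbol from the 27998 genes counted, and each symbol stood on 1 line of the gene list. Cells came from mice with experimental autoimmune encephalomyelitis (EAE), a model of multiple sclerosis that was induced by immunization with a myelin peptide in complete Freund's adjuvant, with pertussis toxin. The question of the study was how angiopoietin-2 (Ang2), an endothelial ligand of the Tie2 receptor, affects neuroinflammation, and it sequenced 1 library for each of 4 conditions. In the blockade pair, wild-type C57Bl/6JOlaHsd mice aged 15 weeks received mouse IgG1 (mIgG1) or an Ang2-blocking antibody (Ang2 Ab) prophylactically from the day of induction and were taken at 14 dpi. In the overexpression pair, C57Bl/6JCrl mice aged 12 to 14 weeks were single transgenic littermates (Ctrl) or carried both *VE-cadherin-tTA* and *Tet-OS-Ang2*, in which the endothelial VE-cadherin promoter drives Ang2 once doxycycline has been withdrawn (*EC-Ang2*). These mice received no antibody and a lower pertussis toxin dose, and were taken at 12 dpi. Each library held viable CD45+ leukocytes and CD31+ endothelial cells (ECs) sorted in equal numbers, and how many mice went into a library is not given in the sources used here.

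Cells bring cholesterol in with lipoproteins, break the cholesteryl esters down in lysosomes, and either store the product in lipid droplets or export it to apolipoprotein acceptors. Sterols that accumulate activate liver X receptors (LXRs), nuclear receptors that raise transcription of transporters and of *Apoe* in macrophages. In the SC, microglia and macrophages that clear myelin take up large amounts of cholesterol, and *Apoe* is a well-known gene of the disease-associated state of microglia.

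Transcripts were counted as unique molecular identifiers (UMIs), which count each captured molecule once, in barcodes that each mark 1 droplet. The libraries held 52084739 to 66631583 UMIs, and 5427 to 7498 barcodes with at least 2000 UMIs each, with median depths of 4841 to 6882 UMIs. Any pair of libraries shared 51 to 77 of these barcodes, where 48.9 to 71.3 would be shared if drawn at random. After removal of doublets and of barcodes rich in mitochondrial transcripts, cells of all 4 libraries were clustered together without these 10 genes and named by markers, with the ending -like because a name rests on transcripts alone. In the order mIgG1, Ang2 Ab, Ctrl, and *EC-Ang2*, there were 406, 476, 1080, and 114 microglia-like cells and 2157, 1489, 194, and 847 macrophage-like cells. The same libraries held 336, 789, 680, and 863 monocyte-like cells, 2928, 3391, 3435, and 2384 EC-like cells, and 103, 121, 109, and 63 mural-like cells, which came with the sort. Orders of classes in this text are among these 5 classes unless another class is named. Each marker was highest in the class it names, but macrophage-like and monocyte-like cells shared markers. The microglial gene *Tmem119* was at 312 to 849 CPM in microglia-like cells and at most 58.3 CPM in the other named classes, where CPM is a gene's UMIs per 1000000 UMIs of the class in that library. The macrophage gene *Ms4a7* was at 202 to 424 CPM in macrophage-like cells, and the monocyte gene *Ly6c2* at 2252 to 4266 CPM in monocyte-like cells. Macrophage-like cells held *Ly6c2* at 943 to 2196 CPM. The 11 macrophage markers summed to 7527 to 11994 CPM in macrophage-like cells and to 5380 to 9571 CPM in monocyte-like cells. The pericyte gene *Rgs5* was at 3483 to 4291 CPM in mural-like cells, which also held the EC gene *Cldn5* at 2717 to 3723 CPM, so that this class carries EC transcripts too. Of the microglia-like cells, 44.8%, 38.7%, 12.9%, and 24.6% in the order above held 2 or more of 6 genes when each was thinned to 2000 UMIs. The 6 monocyte and macrophage genes were *Ly6c2*, *Ccr2*, *Plac8*, *Chil3*, *Ms4a4c*, and *Arg1*. All but *Arg1* are monocyte markers here, and *Ms4a7* is not in the set. In the same order, 9 T and NK cell markers summed to 259, 142, 150, and 104 CPM in microglia-like cells. In macrophage-like and monocyte-like cells that sum did not exceed 25.5 CPM. The 8 granulocyte markers summed to 271, 357, 1325, and 409 CPM in microglia-like cells, against 330 to 1287.5 CPM in those classes. The source of these UMIs was not tested.

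RNA of broken cells enters every droplet, and barcodes with 1 to 100 UMIs, which hold no intact cell, give its composition in each library (free RNA). From genes that belong to the other lineage, free RNA was estimated at 4.36% to 9.42% of the UMIs in the 3 myeloid classes, 3.52% to 6.85% in EC-like cells, and 4.06% to 6.53% in mural-like cells. Each condition was 1 library, so no difference between conditions could be tested. The 95% intervals were computed exactly from Poisson or binomial counts, so they hold counting error alone and nothing of the spread between mice. Those of levels and ratios take each UMI as independent, so they leave out the spread between cells too.

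*Apoe*, *Apoc1*, and *Apoc4* are neighbors on the minus strand of mouse chromosome 7 (GRCm38). *Apoe* lies at chr7:19696109-19699188, *Apoc1* at chr7:19689481-19692660, and *Apoc4* at chr7:19678083-19681479, a span of 21106 bp with gaps of 3448 and 8001 bp. A protein-coding gene model of the same strand, Gm44805, which the gene list names *Apoc2*, overlaps *Apoc4*. The assignment of *Apoc4* UMIs is therefore uncertain. The other genes are spread over the genome, with *Nr1h3* on chromosome 2, *Abca1* and *Plin2* on 4, *Lpl* on 8, *Npc2* on 12, *Abcg1* on 17, and *Lipa* on 19. *Nr1h3* overlaps a noncoding gene model of its own strand that was not among the genes counted. Whether transcripts of that model entered the *Nr1h3* counts was not tested.

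The 250 bases before the annotated start were searched in 7 of the 10 genes, with 10 starts in all, for the LXR-type direct repeat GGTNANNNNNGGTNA and for the E-box CACGTG, on both strands. They are shown for *Abca1*, the textbook LXR target and the only gene of the 7 with a match to either motif, and for *Apoe*, the apolipoprotein on which most of the results turn. The *Abca1* window is chr4:53159896-53160145 and the *Apoe* window chr7:19699189-19699438, both on the minus strand of GRCm38.p6 from RefSeq, written 5′ to 3′ with motif matches in capitals.
Abca1: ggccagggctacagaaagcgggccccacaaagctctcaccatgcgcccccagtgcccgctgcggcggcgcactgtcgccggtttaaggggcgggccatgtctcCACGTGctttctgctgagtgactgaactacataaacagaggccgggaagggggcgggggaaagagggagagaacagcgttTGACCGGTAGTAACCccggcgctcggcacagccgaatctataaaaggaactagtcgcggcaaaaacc
Apoe: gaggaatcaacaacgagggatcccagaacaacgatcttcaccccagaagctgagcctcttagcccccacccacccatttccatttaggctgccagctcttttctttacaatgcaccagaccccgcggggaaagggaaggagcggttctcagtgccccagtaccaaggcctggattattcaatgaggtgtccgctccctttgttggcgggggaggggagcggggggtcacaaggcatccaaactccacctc
In *Abca1*, the repeat TGACCGGTAGTAACC reads as the motif on the reverse strand, with its first base at −67 from the start, and CACGTG begins at −147. The repeat was present in 204 of 32851 promoters of this length (0.621%) and CACGTG in 1978 (6.02%). The *Apoe* window held neither set of letters. These are matches of letters and not measured binding.

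*Apoe* encodes the main apolipoprotein of the CNS, which carries cholesterol between cells. In macrophage-like cells, *Apoe* stood at 31474 CPM in mIgG1, 11106 CPM in Ang2 Ab, 9396 CPM in Ctrl, and 7134 CPM in *EC-Ang2*. In microglia-like cells it was at 16884, 4609, 2352, and 2948 CPM in the same order. In monocyte-like cells it was at 11660, 5669, 3641, and 5447 CPM. The mIgG1 library was highest in each of these classes, and macrophage-like cells were the highest class in each library, 1.31- to 2.58-fold above the next class with intervals apart. In mIgG1 macrophage-like cells, *Apoe* alone made up 3.15% of all UMIs. In free RNA, the *Apoe* level was 15370, 5776, 3511, and 4309 CPM, so that the order of the libraries there was the order in microglia-like cells.

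Cells of a class differed widely in *Apoe*. In mIgG1 macrophage-like cells, the tenth and ninetieth percentiles of the level per cell were 8388 and 57602 CPM, 6.87-fold apart. In Ctrl macrophage-like cells they were 56.9 and 29880 CPM. At 2000 UMIs per cell, the share of microglia-like cells with an *Apoe* UMI was 99.5% (mIgG1), 85.1% (Ang2 Ab), 49.0% (Ctrl), and 72.8% (*EC-Ang2*). T and NK cell–like cells, which are not known to express *Apoe*, gave 90.5%, 49.4%, 19.2%, and 26.1% under the same thinning, with median depths of 3807 to 4518 UMIs against 5950.5 to 14806 UMIs in microglia-like cells. For both shares, the order of the libraries was that of *Apoe* in free RNA, and whether free RNA set the shares was not tested. The level in T and NK cell–like cells was 1499, 380, 342, and 148 CPM, lower in *EC-Ang2* than in Ctrl, whereas free RNA was higher. The level separated the classes more clearly than the share of cells did.

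In the vascular classes, *Apoe* was lower than in the myeloid classes of the same library. EC-like cells held 1609 CPM in mIgG1, 965 CPM in Ang2 Ab, 736 CPM in Ctrl, and 469 CPM in *EC-Ang2*, and mural-like cells 1529, 745, 513, and 515 CPM. By the free-RNA estimate, 63.4%, 41.0%, 16.8%, and 34.0% of these EC-like UMIs came from free RNA. After its subtraction, EC-like cells were left with 630, 612, 634, and 322 CPM and mural-like cells with 562, 406, 383, and 354 CPM. By this estimate, the EC-like level without the free-RNA part was nearly equal in mIgG1, Ang2 Ab, and Ctrl, and *EC-Ang2* was the low library. T and NK cell–like cells, without subtraction, held 1499, 380, 342, and 148 CPM in the same order. The remainder rests on the free-RNA estimate, and whether it was EC expression was not tested.

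**Figure D1:**
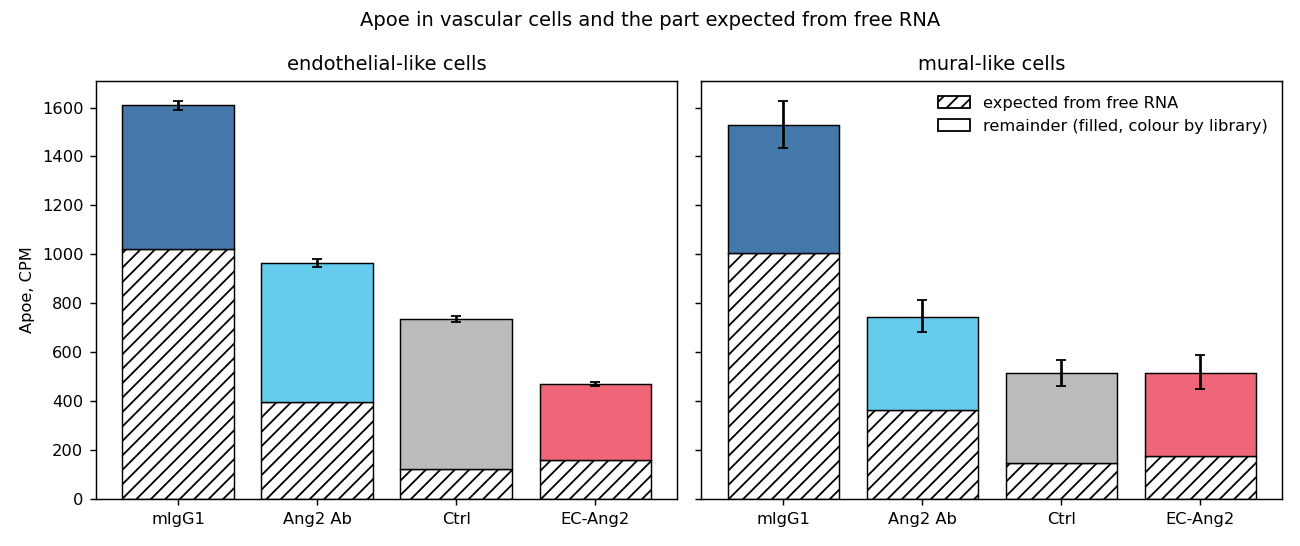
*Apoe* level in CPM (bars, linear axis from 0) in EC-like and mural-like cells of each library, with the hatched part of each bar the level expected from free RNA. The hatched part is 63.4% of the mIgG1 bar and 16.8% of the Ctrl bar in EC-like cells.

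*Apoc1* and *Apoc4*, small apolipoproteins of triglyceride-rich lipoproteins, were far sparser. *Apoc1* in microglia-like cells was at 60.8 CPM in mIgG1, 12.1 CPM in Ang2 Ab, 4.65 CPM in Ctrl, and 10.8 CPM in *EC-Ang2*. In monocyte-like cells it was at 28.0, 18.4, 19.0, and 19.5 CPM, a narrower range. Macrophage-like cells held 24.8, 11.6, 9.89, and 7.66 CPM. Among the 5 classes, monocyte-like cells were thus highest for *Apoc1* in Ang2 Ab, Ctrl, and *EC-Ang2*, with intervals that met those of the next class, and microglia-like cells were highest in mIgG1, with intervals apart. Granulocyte-like cells, outside the 5, held 53.2, 26.7, 6.56, and 9.36 CPM, so that in Ang2 Ab they lay above the monocyte-like level, from 17 UMIs. In EC-like cells *Apoc1* did not exceed 1.76 CPM, and 1 UMI was found in all mural-like cells together.

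*Apoc4* in macrophage-like cells was at 10.4 CPM in mIgG1 (204 UMIs), 3.19 CPM in Ang2 Ab (37 UMIs), 2.20 CPM in Ctrl (4 UMIs), and 1.64 CPM in *EC-Ang2* (15 UMIs). In microglia-like cells, the 4 libraries held 58, 8, 3, and 4 UMIs. No *Apoc4* UMI was found in mural-like cells, which allows up to 4.99 to 8.71 CPM. Outside mIgG1, neighboring classes could not be told apart for *Apoc4* at this depth, other than EC-like cells in Ang2 Ab, whose interval lay below those of the myeloid classes.

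**Figure D2:**
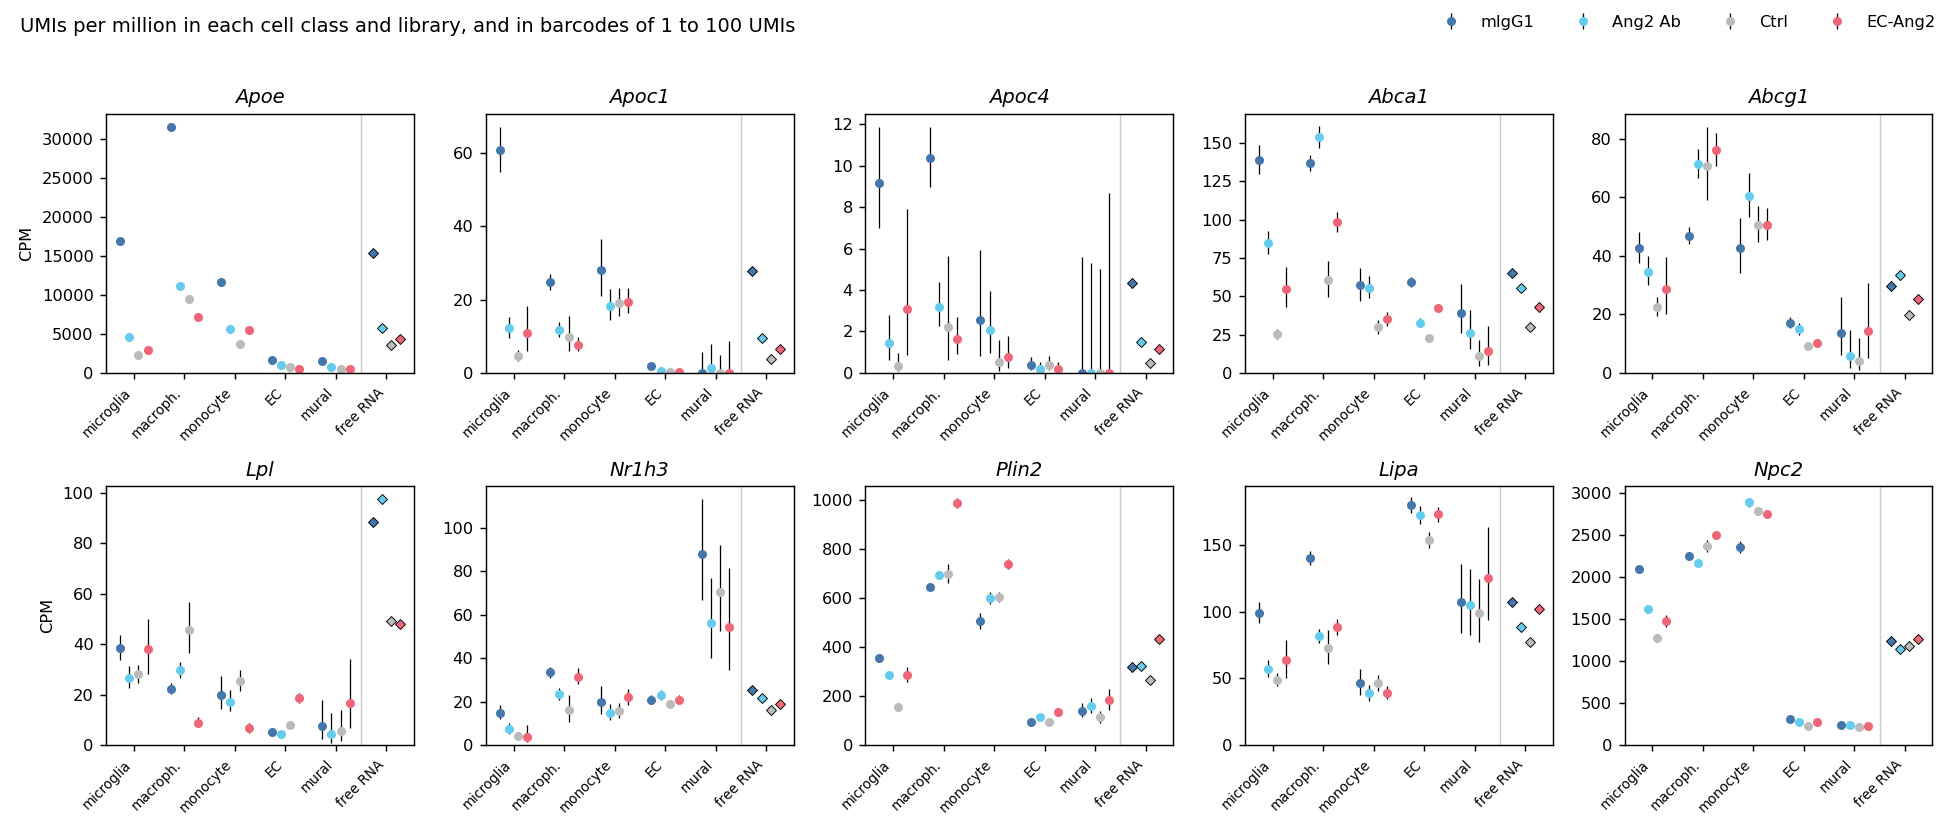
Level in CPM (1 panel per gene, points with 95% exact Poisson intervals) in the 5 classes of each library, with diamonds for the level in barcodes of 1 to 100 UMIs. The mIgG1 points of *Apoe* lie above those of the other libraries in each class, whereas *Nr1h3* is highest in mural-like cells and *Lipa* in EC-like cells.

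*Nr1h3* encodes LXRα, the sterol-sensing nuclear receptor named above. Mural-like cells were its highest class in each library, at 87.8 CPM in mIgG1 (66.7 to 114), 56.1 CPM in Ang2 Ab (39.9 to 76.7), 70.4 CPM in Ctrl (52.6 to 92.3), and 54.3 CPM in *EC-Ang2* (34.4 to 81.5). Macrophage-like cells held 33.4, 23.3, 15.9, and 31.5 CPM, and microglia-like cells held 14.9, 7.31, 4.10, and 3.87 CPM, the lowest of the 5 classes in each library. T and NK cell–like cells, outside the 5, held at most 2.36 CPM. The mural-like interval lay apart from the next class in 3 libraries and met it in *EC-Ang2*, where it rests on 23 UMIs. Mural-like cells were also 1.39 to 2.13 above free RNA on the log2 scale.

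*Abca1* and *Abcg1* encode the transporters that load cholesterol onto lipid-poor apolipoproteins and onto high-density lipoprotein, respectively. *Abca1* in macrophage-like cells was at 137 CPM in mIgG1, 154 CPM in Ang2 Ab, 60.5 CPM in Ctrl, and 98.5 CPM in *EC-Ang2*. In microglia-like cells it was at 139, 84.9, 25.2, and 55.0 CPM. In EC-like cells it was at 59.2, 32.7, 22.4, and 42.2 CPM. The Ctrl library was lowest in each of these 3 classes, and the mIgG1 library was highest in microglia-like and EC-like cells but not in macrophage-like cells. The first and second class did not differ in mIgG1, where microglia-like and macrophage-like cells were 1.01-fold apart.

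*Abcg1* took another order. In macrophage-like cells it was at 46.9 CPM in mIgG1, 71.5 CPM in Ang2 Ab, 70.9 CPM in Ctrl, and 76.2 CPM in *EC-Ang2*, so that mIgG1 was the lowest library. Microglia-like cells held 42.6, 34.6, 22.5, and 28.6 CPM, with mIgG1 the highest. Monocyte-like cells, at 42.8, 60.5, 50.7, and 50.6 CPM, met macrophage-like cells within the intervals in both libraries of the blockade pair. EC-like cells did not exceed 17.03 CPM. Granulocyte-like cells, outside the 5 classes, were above macrophage-like cells in each library, at 75.4, 100.65, 90.4, and 108 CPM.

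*Lpl* encodes lipoprotein lipase, which releases fatty acids from lipoprotein triglycerides and is made by disease-associated microglia. In microglia-like cells it was at 38.5 CPM in mIgG1 (33.8 to 43.7), 26.7 CPM in Ang2 Ab (22.6 to 31.4), 28.0 CPM in Ctrl (24.7 to 31.7), and 37.9 CPM in *EC-Ang2* (28.1 to 50.1). Macrophage-like cells held 22.4, 29.7, 45.6, and 8.86 CPM. EC-like cells held 5.06, 4.25, 8.03, and 18.5 CPM. *EC-Ang2* was therefore the lowest library in macrophage-like cells and the highest in EC-like cells. Free RNA held more *Lpl* than any of the 5 classes, at 88.5, 97.7, 49.1, and 47.9 CPM, and the other classes named here (granulocyte-like, dendritic cell–like, and T and NK cell–like) held at most 8.53 CPM. Which cells the free *Lpl* came from was not tested.

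*Plin2* encodes perilipin 2, which coats lipid droplets. Among the 5 classes, macrophage-like cells were highest in each library, at 644 CPM in mIgG1, 694 CPM in Ang2 Ab, 699 CPM in Ctrl, and 988 CPM in *EC-Ang2*, where granulocyte-like cells held 999.7 CPM. Monocyte-like cells followed with 505, 599, 603, and 738 CPM, and microglia-like cells with 353, 287, 155, and 286 CPM. *EC-Ang2* was the highest library in 4 of the 5 classes, the exception being microglia-like cells. The order of macrophage-like, monocyte-like, microglia-like, and mural-like cells was the same in the 4 libraries, with intervals apart. EC-like cells came last, and only in Ctrl did their interval meet that of mural-like cells.

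Both lysosomal genes were measured, and their orders of classes differed. *Lipa* encodes lysosomal acid lipase, which splits cholesteryl esters. Among the 5 classes it was highest in EC-like cells, at 180 CPM in mIgG1, 172 CPM in Ang2 Ab, 154 CPM in Ctrl, and 173 CPM in *EC-Ang2*, and lowest in monocyte-like cells, at 46.4, 38.9, 46.3, and 38.8 CPM, and T and NK cell–like cells held less, at 21.8, 17.3, 21.0, and 19.4 CPM. Macrophage-like cells held 140, 81.5, 72.5, and 88.4 CPM. *Npc2* encodes the protein that hands free cholesterol on for export from the lysosome. It was highest in monocyte-like cells, at 2358, 2894, 2785, and 2749 CPM, followed by macrophage-like cells at 2248, 2170, 2373, and 2499 CPM. EC-like cells held 304, 272, 225, and 273 CPM of *Npc2*, although they led in *Lipa*.

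Against the free RNA of the same library, the level of a gene in a class can be placed for 200 points (10 genes, 5 classes, and 4 libraries). It was above free RNA with an interval off 1 in 61 points, below in 87, and not separable in 52. *Npc2* was above in 12 of its 20 points, namely each myeloid class in each library, and *Plin2* and *Abcg1* were above in 9 each. *Apoe* was above in 7 points, 4 of them macrophage-like, and below in 13. *Lpl* was below in 18 of 20 points and above in none, and *Lipa* was above in 5, including EC-like cells of each library. The map of levels over free RNA shows macrophage-like cells above it for *Apoe*, *Abca1*, *Abcg1*, *Plin2*, and *Npc2* in each library.

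**Figure D3:**
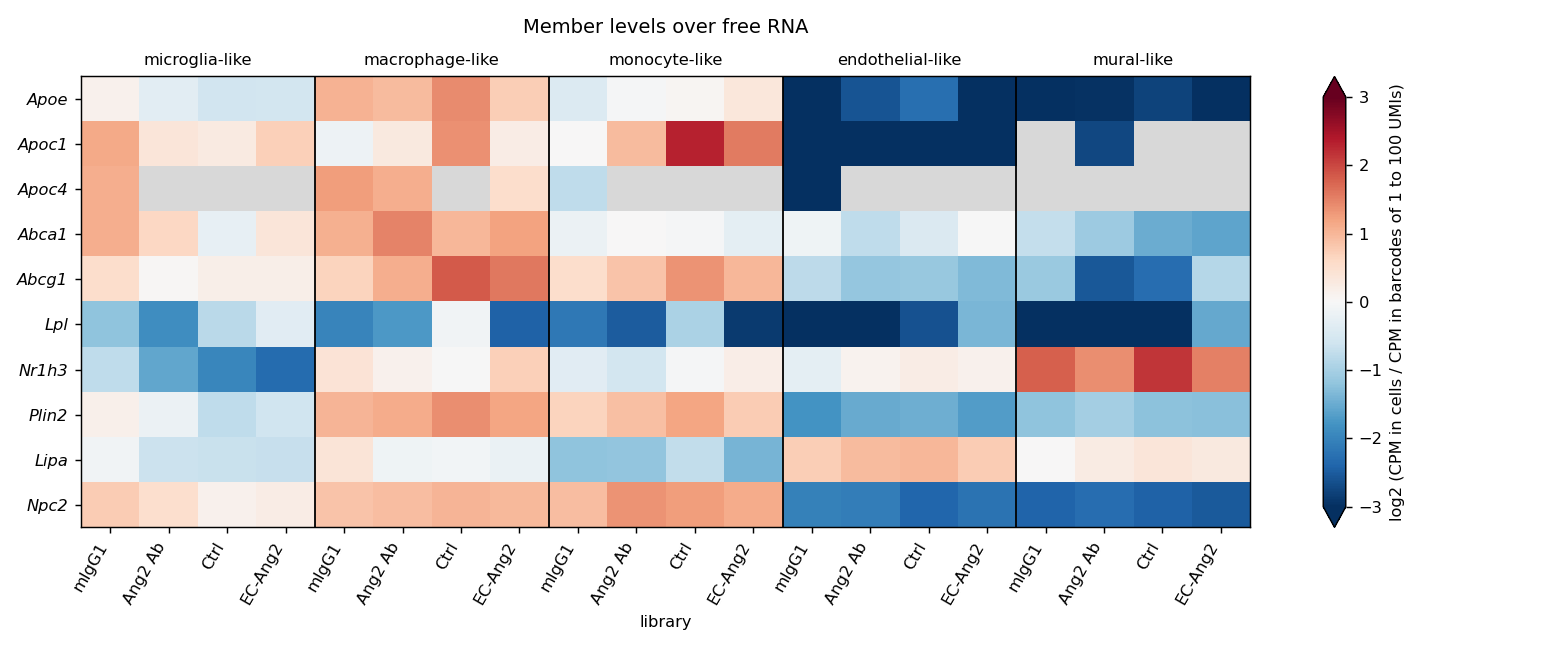
Log2 of the level in cells over the level in barcodes of 1 to 100 UMIs of the same library, for each gene, class, and library, with the color scale limited at 3 in either direction. Gray marks points with no UMI in cells or with under 20 UMIs over cells and free RNA. *Lpl* is below free RNA throughout, and EC-like and mural-like cells are below it for *Apoe* and *Npc2*.

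After Ang2 blockade, *Apoe* was lower in each myeloid class, and the other members split. Ratios are given as log2 of the treated over the control level, and a gene was called higher or lower where it was at least 1.5-fold apart, had 50 UMIs over both libraries, and was detected in 10% of cells in at least 1 of them. Such a call states a size and was not tested. The members were chosen with earlier results of these data known, so the share of all genes is not an independent background. A sparse gene could pass the share of cells through the higher library alone, which favors a difference, and the shares are given for members where that was so. In microglia-like cells, *Apoe* (−1.87, −1.89 to −1.85), *Lipa* (−0.80, −1.0 to −0.60), and *Abca1* (−0.71, −0.87 to −0.55) were lower and were found in at least 10% of cells of both libraries. *Apoc1* (−2.33, −2.72 to −1.95), *Apoc4* (−2.69, −3.97 to −1.61), and *Nr1h3* (−1.03, −1.59 to −0.48) were lower too, but passed through mIgG1 alone. *Apoc1* was found in 24.9% of mIgG1 and 7.14% of Ang2 Ab cells, *Apoc4* in 11.1% and 1.47%, from 58 and 8 UMIs, and *Nr1h3* in 16.0% and 6.72%. In all, 6 of the 10 members were called lower, 3 of them through the higher library alone, and none higher, where 2.97% of all 7872 genes that could be called were lower and 5.97% were higher. The remaining 4 members had ratios between −0.53 (*Lpl*) and −0.30 (*Plin2*).

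The macrophage marker *Ms4a7* was at 159 CPM (mIgG1) and 58.1 CPM (Ang2 Ab) in microglia-like cells, whereas the summed level of the 11 macrophage markers was 2924 and 2890 CPM. Beside these values and the *Apoe* ratios of the other classes below, free RNA held *Apoe* at −1.41 between the same libraries. T and NK cell–like cells held it at −1.98, dendritic cell–like cells at −2.12, and granulocyte-like cells at −1.45. The estimated free-RNA part of the microglia-like *Apoe* UMIs was 4.22% in mIgG1, and with free RNA subtracted the ratio was −1.90. It was −2.23 when microglia-like cells with 2 or more of the 6 monocyte and macrophage genes, a set without *Ms4a7*, were left out. *Abca1* passed 1.5-fold in 16 of 20 alternative settings and was at −0.45 with gates on single markers in place of clusters, and with each cell thinned to 2000 UMIs only *Apoe* met the rule. Here and below, the 20 settings include those that change only the filter or fold of a call, which cannot move a ratio.

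In macrophage-like cells, *Apoe* (−1.5), *Apoc1* (−1.09, −1.37 to −0.81), and *Lipa* (−0.78, −0.89 to −0.68) were lower and *Abcg1* was higher (0.61, 0.47 to 0.75), out of 9 members that could be called. Of 5786 genes, 1.78% were lower and 2.49% higher. *Apoc1* passed through mIgG1 alone, with 13.4% of cells against 5.78%. *Apoc4* was at −1.70 (−2.25 to −1.19) but was found in under 10% of cells. *Abca1* (0.16), *Plin2* (0.11), and *Npc2* (−0.05) lay within 1.5-fold, as did *Nr1h3* (−0.52) and *Lpl* (0.41).

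Macrophage-like cells joined 2 clusters in unequal numbers, which bears on these ratios. The first, led by *Ms4a7*, *Apoe*, and *Pf4*, held 1858 mIgG1 and 749 Ang2 Ab cells, and the second, led by *Mmp12* and *Ccl24*, held 299 and 740. *Apoe* was at 34225 CPM (mIgG1) and 17381 CPM (Ang2 Ab) in the first (−0.98), and at 16455 and 5030 CPM in the second (−1.71). *Apoe* was lower in Ang2 Ab within each. With both clusters weighted alike in the libraries, the *Apoe* ratio was −1.09, and those of the other genes also varied with the cluster. *Abcg1* was at 0.28 in the first cluster and 0.68 in the second, and *Apoc1* at −0.55 and −1.37, so that both were past 1.5-fold only in the second. *Lpl* was at −0.68 (−1.09 to −0.30) in the first and 0.13 (−0.17 to 0.44) in the second, and its sign over all macrophage-like cells turned in 5 of 20 alternative settings.

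In monocyte-like cells, *Apoe* (−1.04, −1.07 to −1.01) and *Apoc1* (−0.61, −1.12 to −0.08) were lower among 7 members, against 2.31% lower and 3.75% higher of 4581 genes. *Apoc1* passed through mIgG1 alone, with 10.1% of cells against 7.48%, and was past 1.5-fold in 9 of 20 alternative settings. *Abcg1* (0.50), *Npc2* (0.29), and *Plin2* (0.25) lay above 0 within 1.5-fold. *Apoe* was lower in both monocyte-like clusters, at −0.98 in the one led by *Plac8* and −1.09 in the one led by *Gm15056*, *Nos2*, and *Inhba*.

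In EC-like cells, *Abca1* (−0.86, −1.01 to −0.71) and *Apoe* (−0.74, −0.77 to −0.71) were lower among 6 members, against 1.4% lower and 1.48% higher of 6019 genes. *Abca1* was lower in each of the 5 large EC-like clusters, from −1.24 to −0.45, and past 1.5-fold in all 20 alternative settings. Those that changed the filter, the fold, or myeloid cells alone could not move this ratio. *Apoe* was at −0.04 with free RNA subtracted, so that this call was lost. *Lipa*, which EC-like cells held most of, was at −0.06 (−0.14 to 0.01), within counting error of 0. In mural-like cells, *Apoe* (−1.04, −1.19 to −0.88) and *Nr1h3* (−0.65, −1.27 to −0.04) were lower among 5 members, against 4.94% lower and 5.55% higher of 4249 genes, and with free RNA subtracted *Apoe* was at −0.47. *Nr1h3* rests there on 58 and 39 UMIs.

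**Figure D4:**
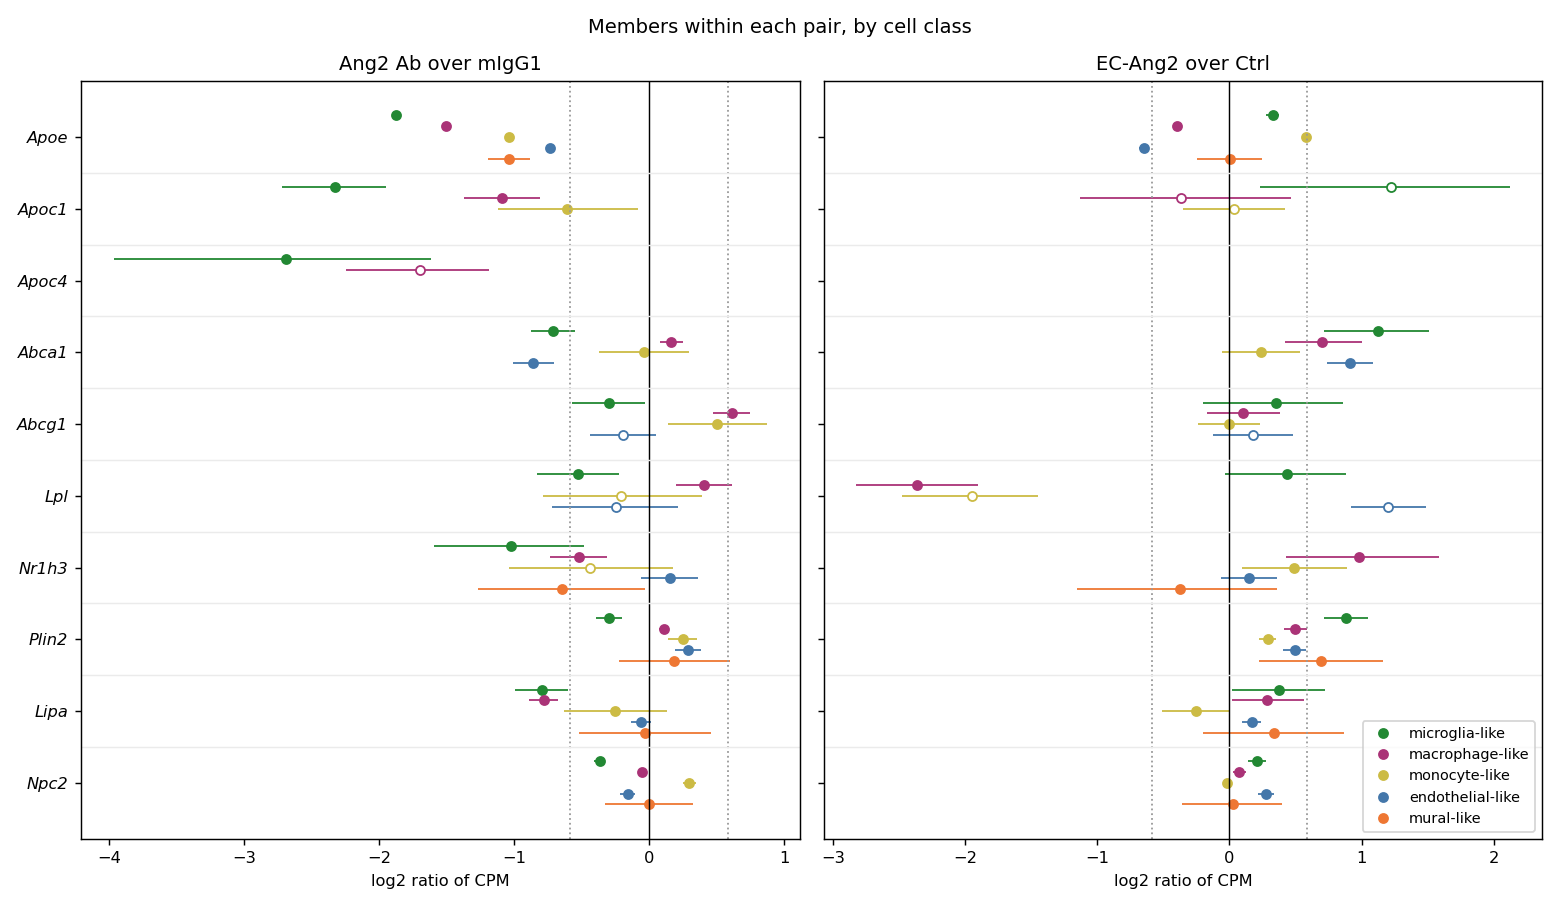
Log2 ratio of the treated over the control level of each gene in each class, for the blockade pair (1 panel) and the overexpression pair (1 panel), with 95% exact binomial intervals. Filled points had 50 UMIs and a UMI in 10% of cells, open points had 50 UMIs only, and dotted lines mark 1.5-fold. In the blockade panel, *Apoe* lies between −1.87 and −0.74 in the 5 classes.

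With endothelial Ang2 overexpression, the calls fell on *Abca1*, *Plin2*, *Nr1h3*, *Lpl*, and, in EC-like cells, *Apoe*. *Apoc1* and *Apoc4* were too sparse to be called in any class. In microglia-like cells, *Abca1* (1.12, 0.72 to 1.51) and *Plin2* (0.88, 0.71 to 1.05) were higher among 7 members, against 6.49% higher and 14.5% lower of 6944 genes. *Abca1* was at 25.2 CPM in Ctrl and 55.0 CPM in *EC-Ang2* and was past 1.5-fold in all 20 alternative settings. *Apoc1* was at 1.22 (0.23 to 2.12) from 42 and 14 UMIs and *Apoc4* at 3.22 (0.66 to 5.99) from 3 and 4 UMIs. *Apoe* was at 0.33 (0.28 to 0.38), within 1.5-fold. By cluster, *Apoe* was at −0.45 in the cluster with the highest level of microglial markers, led by *Ccl3*, *Tnf*, and *P2ry12* (493 Ctrl and 25 *EC-Ang2* cells), −0.22 in the one led by *Defa24*, *Gm15284*, and *Ccl12* (364 and 59 cells), and 0.96 in the one led by *Cx3cr1* and *Cst7* (223 and 30 cells). *Plin2* was at 0.16, 1.28, and 0.96 in the same order. The *Cx3cr1* cluster also had the cycling gene *Top2a* among its 10 leading genes. The *EC-Ang2* values rest on 114 cells. Of these, 24.6% held 2 or more of the 6 monocyte and macrophage genes, against 12.9% of the Ctrl cells. The summed macrophage markers were at 2414 CPM in *EC-Ang2* and 1907 CPM in Ctrl. The part of these transcripts in the ratios was not tested beyond leaving such cells out, which gave 1.14 for *Abca1* and 0.70 for *Plin2*.

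In macrophage-like cells, *Nr1h3* (0.98, 0.43 to 1.59) and *Abca1* (0.70, 0.42 to 1.00) were higher and *Lpl* (−2.36, −2.82 to −1.90) was lower among 8 members, against 4.45% higher and 8.49% lower of 6359 genes. *Lpl* passed through Ctrl alone, with 14.4% of cells against 5.67%, from 83 and 81 UMIs. *Nr1h3* rests on 29 Ctrl and 288 *EC-Ang2* UMIs, and was at 0.48 (−0.20 to 1.23) in the *Ms4a7* cluster and 1.79 (0.78 to 3.02) in the *Mmp12* cluster. *Abca1* was at 0.92 and 0.49 in these clusters, so that each gene was past 1.5-fold in 1 of them. *Apoc1* (−0.37, −1.13 to 0.47) and *Apoc4* (−0.42, −2.07 to 1.63) had intervals that held 0. *Plin2* was at 0.50 (0.42 to 0.59), just under 1.5-fold. *Apoe* was at −0.40 (−0.42 to −0.37), and here the clusters took opposite signs, with −0.40 in the *Ms4a7* cluster (16323 and 12360 CPM) and 1.21 in the *Mmp12* cluster (1610 and 3712 CPM). The *Mmp12* cluster held 82 of the 194 Ctrl cells and 490 of the 847 *EC-Ang2* cells. The sign of the *Apoe* ratio in macrophage-like cells of this pair therefore depended on the cluster.

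In monocyte-like cells, 0 of 7 members were called, against 1.64% higher and 3.83% lower of 5353 genes. *Apoe* was at 0.58 (0.56 to 0.61), at the edge of 1.5-fold, with 0.43 in the *Plac8* cluster and 1.08 in the *Nos2* cluster. *Lpl* was at −1.95 (−2.48 to −1.45) from 138 and 43 UMIs but was found in under 10% of cells.

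In EC-like cells, *Abca1* (0.91, 0.74 to 1.08) was higher and *Apoe* (−0.65, −0.69 to −0.61) lower among 6 members, against 5.46% higher and 5.85% lower of 6764 genes. *Abca1* passed through *EC-Ang2* alone, with 22.3% of cells against 9.43% in Ctrl. The *Apoe* ratio came with a different make-up of the ECs. A cluster led by *Angpt2* and *Apln* held 118 Ctrl and 679 *EC-Ang2* cells, and a cluster led by *Car4* and *Slc22a8*, which had the most *Apoe* of the EC-like clusters, held 1261 and 318. Within clusters, *Apoe* was at 0.13, 0.22, −0.54, −0.60, and 0.11 in the 5 large ones, and with clusters weighted alike it was at −0.05. *Abca1* was above 0 in each of the 5, from 0.38 to 1.01, and at 0.49 when they were weighted alike, which is under 1.5-fold. In mural-like cells, *Plin2* (0.69, 0.23 to 1.16) was higher among 5 members, against 6.87% higher and 8.36% lower of 3815 genes.

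Among ratios of this pair that rest on at least 50 UMIs, those of *Lpl* spanned the widest range over the classes, although it could be called in macrophage-like and microglia-like cells only. In EC-like cells it was at 1.20 (0.92 to 1.49) from 146 and 373 UMIs, in under 10% of cells. It was higher in *EC-Ang2* in each of the 5 large EC-like clusters, at 6.9 and 47.3 CPM in the *Car4* cluster (2.77) and 1.2 and 27.6 CPM in the *Angpt2* cluster (4.56). The *Angpt2* cluster held 118 Ctrl cells, so that its Ctrl level rests on few UMIs and the size of its ratio is uncertain. In macrophage-like cells *Lpl* was lower in both clusters, at 15.6 and 2.5 CPM (−2.65) and at 79.4 and 13.04 CPM (−2.61). These rest on 83 Ctrl and 81 *EC-Ang2* UMIs over both clusters. Free RNA held *Lpl* at −0.03 (−0.32 to 0.25) in the same pair. The share of EC-like cells with an *Lpl* UMI at 2000 UMIs was 1.48% in Ctrl and 3.48% in *EC-Ang2*, against 0 of 229 and 0 of 403 T and NK cell–like cells, which allows up to 1.60% and 0.911% by the exact binomial limit.

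**Figure D5:**
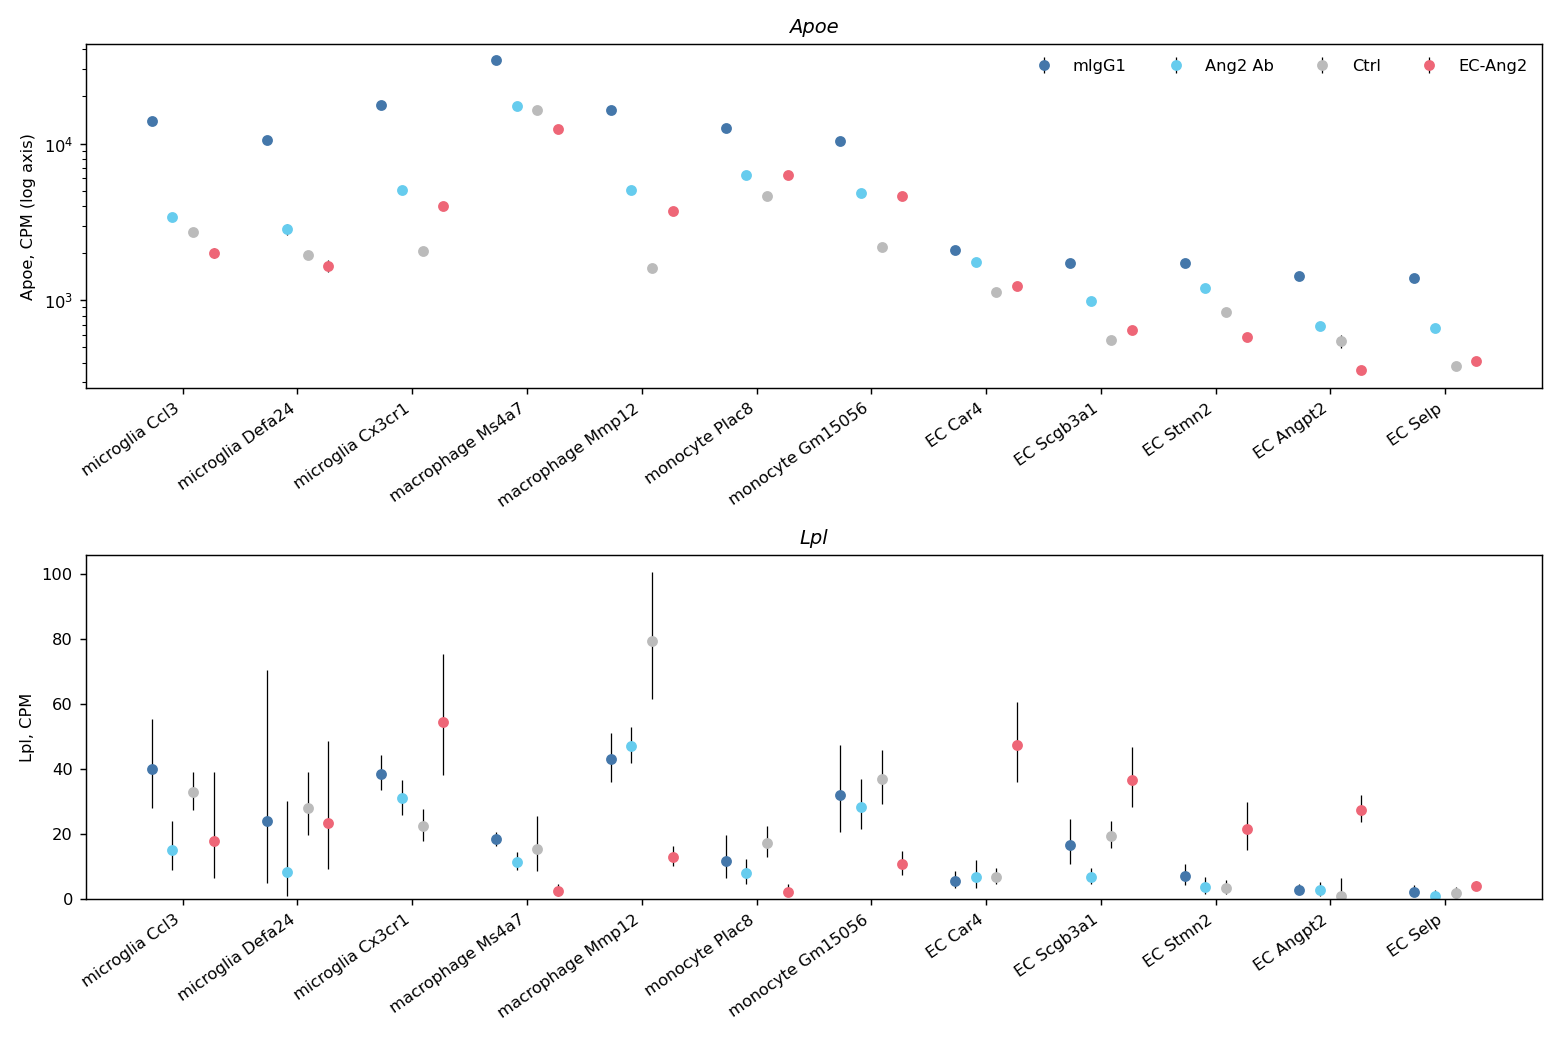
*Apoe* (log axis) and *Lpl* (linear axis) level in CPM by cluster and library, with clusters labeled by class and leading gene. *Apoe* is highest in mIgG1 in each cluster, and the *EC-Ang2* points of *Lpl* lie below Ctrl in the macrophage-like clusters and above Ctrl in the 5 large EC-like clusters.

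The control libraries of the pairs were themselves apart. *Apoe* in microglia-like cells was at 16884 CPM in mIgG1 and 2352 CPM in Ctrl, which differed more than either pair. They differ in genotype (wild type or single transgenic), substrain, age, day after induction, pertussis toxin dose, and antibody, and these cannot be told apart. The make-up of the class differed too. The cluster led by *Cx3cr1* and *Cst7* held 282 of 406 mIgG1 and 223 of 1080 Ctrl microglia-like cells. At least 2 of the 6 monocyte and macrophage genes were found in 44.8% and 12.9% of the microglia-like cells. The part of this make-up in the *Apoe* difference was not tested.

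Around the members, 80 genes of 7 lists for neighboring steps were counted by the same rule, under which a gene could again pass through 1 library alone. The lists too were chosen with earlier results of these data known, which may favor calls over the share of all genes. The list of SREBP2 control and cholesterol synthesis, which sterols repress, had 7 of 17 genes higher and 0 lower in microglia-like cells after blockade, against 5.97% higher and 2.97% lower of all genes, with a median log2 ratio of 0.53 against 0.08 for all genes. Among them were the synthesis enzymes *Sqle* (1.43, 25 and 60 UMIs) and *Cyp51* (0.92, 89 and 150 UMIs). *Sqle* passed through Ang2 Ab alone, with its 25 UMIs in 406 mIgG1 cells. In the overexpression pair, 10 of 12 genes of this list were lower in microglia-like cells and 0 were higher, against 14.5% lower and 6.49% higher of all genes, with a median of −1.11 against −0.06. *Insig1*, which holds the SREBP complex in the endoplasmic reticulum, was at −1.82 (60.1 and 17.03 CPM), and *Dhcr7*, an enzyme of the last steps of synthesis, was at −1.55 (18.2 and 6.19 CPM). *Dhcr7* passed through Ctrl alone, with 8 UMIs in 114 *EC-Ang2* cells. How many calls of this list passed through 1 library alone is not given here. In macrophage-like cells, 0 of 9 genes of this list were called in the blockade pair and 1 of 9 was lower in the overexpression pair, where 8.49% of all genes were lower. Monocyte-like cells had 0 of 9 called in the blockade pair. In the overexpression pair they had 3 of 10 lower and 0 higher, against 3.83% lower and 1.64% higher of all genes. Their median there was −0.37 against −0.02. EC-like cells had 0 of 11 called in the blockade pair and 1 of 14 higher in the overexpression pair, where 5.46% of all genes were higher.

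The other lists had fewer calls in microglia-like cells, where they also had fewer genes that could be called. Of the lysosomal lipid genes, 0 of 10 were called in microglia-like or macrophage-like cells after blockade. With overexpression, 1 of 10 was lower in microglia-like cells, where 14.5% of all genes were lower, and 1 of 10 higher in macrophage-like cells, where 4.45% were higher. The list of LXR, RXR, and PPAR receptors with further LXR targets had 1 of 9 genes higher in microglia-like and 1 of 7 higher in macrophage-like cells after blockade, where 5.97% and 2.49% of all genes were higher. With overexpression, it had 3 of 8 genes higher and 0 lower in macrophage-like cells, against 4.45% and 8.49% of all genes, with a median log2 ratio of 0.20 against −0.05. Lipid droplet and lipolysis genes had 1 of 9 higher and 1 of 9 lower in microglia-like cells after blockade, against 5.97% and 2.97% of all genes. They had 2 of 9 higher and 1 of 9 lower in macrophage-like cells of the overexpression pair, against 4.45% and 8.49%. Of the lipoproteins and their remodeling proteins, only 2 or 3 of 9 genes passed the filter in any class. After blockade, LPL partners and fatty acid binding genes had 2 of 5 lower in microglia-like and 1 of 3 lower in macrophage-like cells. Of all genes, 2.97% and 1.78% were lower there. With overexpression, 2 of 3 were higher in microglia-like cells, against 6.49% of all genes. In macrophage-like cells, 2 of 4 were higher and 1 of 4 lower, against 4.45% and 8.49%.

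Of the uptake receptors, 0 of 7 were called in microglia-like cells after blockade. In macrophage-like cells, 1 of 6 was higher and 2 of 6 lower, against 2.49% and 1.78% of all genes. With overexpression, 2 of 5 were higher and 1 of 5 lower in microglia-like cells, against 6.49% and 14.5%. In macrophage-like cells, 2 of 7 were lower and 0 higher, against 8.49% and 4.45%. Lipid uptake and binding genes were among the list genes with the largest ratios. In macrophage-like cells after blockade, *Fabp4*, a fatty acid binding protein, was lower (−1.13, 42.3 and 19.3 CPM), as was the lipid receptor *Trem2* (−0.81, 671 and 382 CPM). *Olr1*, a receptor for oxidized lipoproteins, was higher (1.23, 20.5 and 47.9 CPM), as was the desaturase *Scd2* (1.5, 15.8 and 44.6 CPM). In microglia-like cells, the fatty acid binding genes *Fabp3* (−1.19) and *Fabp5* (−0.67) were lower. *Fabp3* passed the share of cells through mIgG1 alone, with 37 UMIs in 476 Ang2 Ab cells. In EC-like cells, *Scd2* (−0.93) and *Trem2* (−0.72) were lower. *Trem2*, a myeloid gene, was at 23.95 and 14.5 CPM there and passed through mIgG1 alone, with 232 UMIs in 3391 Ang2 Ab cells.

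With Ang2 overexpression, *Fabp5* was higher in macrophage-like cells (2.17, 359 and 1615 CPM), in microglia-like cells (1.43, 62.1 and 167 CPM), and in EC-like cells (3.27, 3.85 and 37.1 CPM). The 11 macrophage markers summed to 415 CPM (Ctrl) and 1033 CPM (*EC-Ang2*) in EC-like cells, against 9806 and 11994 CPM in macrophage-like cells. Whether the EC-like *Fabp5* came from myeloid transcripts or free RNA was not tested. *Cd36*, a fatty acid transporter and scavenger receptor, was higher in microglia-like cells (1.54) and lower in macrophage-like cells (−1.35). *Pltp*, the phospholipid transfer protein, was lower in macrophage-like cells (−2.65, 139 and 22.1 CPM) and in EC-like cells (−1.70, 1950 and 601 CPM). Macrophage-like cells held more free RNA by the estimate in Ctrl (9.42%) than in *EC-Ang2* (4.36%), and EC markers summed to 699 and 296 CPM there. The part of EC transcripts in the macrophage-like *Pltp* ratio was not tested. *Angptl4*, an inhibitor of lipoprotein lipase, was higher in macrophage-like cells (1.22), from 9 and 105 UMIs. It passed the share of cells through *EC-Ang2* alone, as did *Fabp5* in EC-like cells, which favors a difference. *Cd36* in macrophage-like cells passed through Ctrl alone. In EC-like cells, *Hilpda*, a hypoxia-inducible inhibitor of lipolysis, was higher (1.00) and the lipoprotein receptor *Lrp8* was lower (−1.12). These genes were the largest in each direction by a fixed rule and are not a count of their lists.

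For each member, the genes of most similar pattern were found over 20 points (5 classes in 4 libraries) among 9276 genes, by Pearson's r of log2(CPM + 1). The points share libraries and free RNA, and r is given as a description only. *Apoe* was most like *Slc43a2* (0.957) and *Ms4a7* (0.951), *Apoc1* like *Nsa2* (0.958) and *Sema4d* (0.949), and *Apoc4* like *Apoe* (0.887) and *Atp13a2* (0.876). *Abca1* was most like *Tmem160* (0.926) and *Gpnmb* (0.913), and *Abcg1* like *Cfp* (0.968) and *Kcnn4* (0.963). *Plin2* was most like *Grina* (0.985) and *Prdx6* (0.979), and *Npc2* like *AB124611* (0.996) and *Csf2ra* (0.995). *Lipa* went with *Ptgfrn* (0.930) and *Aes* (0.905), and *Nr1h3* with *Gab1* (0.926) and *Hcfc1r1* (0.914). *Lpl* had the weakest partners, *Batf3* (0.817) and *Alkbh1* (0.808). Among the members, *Apoc1* and *Npc2* were the most alike (0.936), and *Lipa* and *Npc2* the most opposed (−0.728).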

How the data were processed

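Single-cell 3′ RNA-Seq (10x Genomics) was done on sorted CD45+ and CD31+ cells of the SC. The authors deposited raw UMI counts of each gene in every barcode, empty droplets too; the submitters' processing notes name Cell Ranger 2.1.1, Seurat 2.3.4, and mm10. Barcodes with at least 2000 UMIs were kept, and those with 10% or more mitochondrial UMIs and the highest Scrublet scores (0.8% per 1000 barcodes) were removed. In the order mIgG1, Ang2 Ab, Ctrl, and *EC-Ang2*, 6602, 7041, 6275, and 5180 cells remained. The 4 libraries were clustered together in scanpy 1.11.5 (2000 variable genes without the members and lists, 40 components, 20 neighbors, resolution 1). A cluster took the name of the marker list with the highest mean log2 fold, if that was at least 0.3 with 3 markers past 1.5-fold. No other list could have more markers among the 10 leading genes of the cluster. Clusters far below the median depth of each library with no own marker among those genes were left unnamed. The limits of 0.3 and 3 markers were set after the clusters had been seen.

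UMIs were summed per class and library and given as CPM with exact intervals from scipy 1.17.1. Groups were single libraries, and no p-value was computed. The study's own tests between single-cell libraries took cells as replicates, whereas its other assays, such as RT-qPCR and flow cytometry, compared groups of mice. Ratio calls used 1.5-fold, 50 UMIs over both libraries, and detection in 10% of cells in at least 1 library, and the code was tested on simulated data. The share of free RNA was estimated from 8 EC-only genes in leukocytes and 5 immune-only genes in vascular cells. All 10 members are named, with the 2 genes most like each one and, per pair and for macrophage-like, microglia-like, and EC-like cells, the 2 largest ratios in each direction from the lists. Members and lists were chosen with earlier results of these data known. Alternatives changed the depth minimum, doublets, clustering, alignment (Seurat 5.3.0), scaling (edgeR 4.0.16), free RNA, filter, and fold. PCR copies are removed by UMIs, and intervals and limits cover counting error only.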

Additional observations from a re-analysis of the deposited data

Results flagged for a closer look

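*Lpl* in the overexpression pair went opposite ways in different classes. Its log2 ratio of *EC-Ang2* over Ctrl was 1.20 in EC-like cells, against −2.36 in macrophage-like cells and −1.95 in monocyte-like cells, with counting intervals apart. In EC-like and monocyte-like cells *Lpl* was found in under 10% of cells and could not be called. The macrophage-like call passed through Ctrl alone. At 2000 UMIs per cell, 17 of 680 Ctrl monocyte-like cells held *Lpl*, with up to 10 UMIs in a cell. Each condition was 1 library, and the difference between the classes was not tested.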

How the results depend on the processing

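Of the 24 member ratios past the size rule, 0 changed sign under the 20 alternatives (18 planned, 2 chosen after seeing the data), and 11 stayed past 1.5-fold in each alternative that gave a value. Of 492 comparisons of counts with their main value, 410 were within 1.5 times. The others follow as values, with the main value first; their cause was not tested unless the setting's own construction (fewer UMIs, another filter or fold) shows it.

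In the blockade pair, called members in microglia-like cells (6) were 1 at 2000 UMIs per cell. Those in macrophage-like cells (4) were 2 at 2-fold and 2 in the cluster with the highest marker score alone. Those in monocyte-like cells (2) were 4 without doublet removal, with CCA alignment, and with list genes kept in clustering, 5 at resolution 2, and 1 when thinned, with free RNA subtracted, at 2-fold, and with clusters weighted alike. Those in EC-like cells (2) were 1 when thinned and with free RNA subtracted, 4 without a filter and with 10 UMIs alone, and 0 at 2-fold. Those in mural-like cells (2) were 1 without doublet removal, at resolution 2, when thinned, with free RNA subtracted, and at 2-fold, 6 without a filter, and 4 with 10 UMIs alone.

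In the overexpression pair, microglia-like cells (2) gave 1 with per-barcode gates, when thinned, and at 2-fold, and 4 without a filter. Macrophage-like cells (3) gave 5 at 4000 UMIs and without doublet removal, 6 without cycling cells, and 1 at 2-fold and in the cluster with the highest marker score. Monocyte-like cells (0) gave 1 at 1000 UMIs, without doublet removal, with list genes kept, without cycling cells, with free RNA subtracted, with TMM and median-of-ratios factors, without a filter, with 10 UMIs alone, and with clusters weighted alike, and 2 at resolution 2 and with per-barcode gates. EC-like cells (2) gave 1 with list genes kept, without cycling cells, with the mean over cells, and with median-of-ratios factors, 0 when thinned, at 2-fold, and with clusters weighted alike, and 4 without a filter and with 10 UMIs alone. Mural-like cells (1) gave 2 without doublet removal and with 10 UMIs alone, 3 without a filter, and 0 at 2-fold.

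List genes called higher in the blockade pair (20) were 6 when thinned, 64 without a filter, 49 with 10 UMIs alone, and 9 at 2-fold, and those lower (12) were 4, 37, 23, and 2. In the overexpression pair, those higher (24) were 41 without doublet removal, 12 when thinned, 55, 44, and 8 in the same order, and those lower (30) were 9, 80, 60, and 17.

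Libraries with the highest *Apoe* level in macrophage-like cells (4) were 2 at 4000 UMIs. For *Abcg1* (4) they were 2 with per-barcode gates and 1 in the cluster with the highest marker score, and for *Plin2* (4) 1 in that cluster. For *Apoc1* in monocyte-like cells (3) they were 1 without cycling cells, and for *Npc2* (4) 2 without cycling cells and with per-barcode gates. For *Lpl* in microglia-like cells (2) they were 4 without doublet removal.

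No paired analysis was possible because each condition was 1 library. For the same reason, no value here carries the spread between mice. The line between macrophage-like and monocyte-like cells moved most, with 67 to 455 Ctrl macrophage-like cells across settings. Depth limited *Apoc4*, *Lpl*, and *Nr1h3*, which few cells held.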

Other observations

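Outside the 5 classes, *Plin2* in granulocyte-like cells was at 489 CPM in Ctrl (671 UMIs, 336 cells) and 999.7 CPM in *EC-Ang2* (1175 UMIs, 351 cells), a log2 ratio of 1.03 (0.89 to 1.17). In the blockade pair it was at 0.24 (−0.04 to 0.54) in this class. *Apoe* in dendritic cell–like cells was at 2779 CPM (mIgG1) and 641 CPM (Ang2 Ab) in the blockade pair (−2.12, −2.22 to −2.02), and at 1.14 (0.90 to 1.38) in the overexpression pair from 218 and 417 UMIs. In T and NK cell–like cells, *Apoe* was at −1.98 in the blockade pair and −1.21 (−1.42 to −1.0) in the overexpression pair, where free RNA was at 0.30. The share of these cells with an *Apoe* UMI went the other way in the overexpression pair, at 40.6% in Ctrl and 50.4% in *EC-Ang2* without thinning.

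In mural-like cells after blockade, 4 of 5 genes of SREBP2 control and cholesterol synthesis were higher and 0 lower, against 5.55% higher and 4.94% lower of all genes, with a median log2 ratio of 0.85 against 0.01 for all genes of the class. The class held 103 and 121 cells. The cause was not tested.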
